A study of Mus musculus with 4 samples.

Results

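The 9 genes described here encode the proteins that act first when the B-cell receptor is engaged, namely the kinases *Syk*, *Btk*, *Tec*, *Lyn*, *Blk* and *Fyn*, the adaptors *Blnk* and *Pik3ap1* and the phospholipase *Plcg2*. They were chosen by name, with earlier results of these data known, from the 55359 genes of the count table. They were found through their GENCODE M21 symbols, and all 9 were among the 14637 genes tested. Bulk RNAseq was measured in T8 cells, a precursor B-cell acute lymphoblastic leukemia (pB-ALL) line grown out of the primary leukemia of a single *Irf4*-/- mouse, which carries an acquired mutation in *Jak3*. The EV-RV group was transduced with a retrovirus encoding GFP alone and the IRF4-RV group with one encoding GFP and IRF4, and each group held 2 libraries from viable cells collected the next day. All 4 libraries are *Irf4*-/-, and no wild-type cells and no other leukemia were compared here. The titles and the tissue label name T8, whereas the protocol text of the same labels names T11. The series calls the libraries of a group biological replicates without saying whether they came from separate cultures, so that p-values measure the spread between these libraries alone.

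In B cells, engagement of the receptor lets SRC family kinases, mainly LYN, BLK and FYN, phosphorylate the tails of the receptor's CD79 chains, where SYK docks and becomes active. SYK phosphorylates the adaptor BLNK, also called SLP-65, which gathers BTK and PLCγ2 on one scaffold, so that BTK activates PLCγ2 and calcium and diacylglycerol signals start. PIK3AP1, also called BCAP, couples the same kinases to PI3 kinase. In pre-B cells the pre-B-cell receptor uses this machinery, and BLNK and BTK are known as brakes on pre-B-cell leukemia.

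The libraries held between 31230223 and 37817752 counts, and a floor of 3 counts lay between 0.0824 and 0.0952 CPM, which covers counting error only. CPM are counts scaled to a common library size after TMM normalization, and differences were tested with edgeR's quasi-likelihood test at an FDR of 0.1 (SE, standard error of a log2 fold change). The EV-RV libraries held 8070 and 7600 counts of *Irf4* and the IRF4-RV libraries 95578 and 90693, as the vector labels say, although counts per gene cannot show which exons of the disrupted locus were read. Of 10 markers of the B-cell lineage, 8 were tested and 3 were lower with IRF4-RV, namely *Il7r* and the surrogate light chain genes *Vpreb1* and *Igll1*, and *Rag1* and *Rag2*, the recombinase genes, had at most 1 count in any library. The summed level of the list ranged from 3518 to 3685 CPM with EV-RV and from 2482 to 2488 CPM with IRF4-RV. All 10 myeloid markers together had between 6 and 13 counts per library, and 9 T and NK cell markers between 39 and 58, most of them from *Klrb1c*, with *Cd8a*, *Cd8b1* and *Ncr1* at 0. Of 6 stromal markers, 5 were tested, and the summed level of the list was 46.8 and 87.3 CPM in the EV-RV libraries and 45.9 and 217 CPM with IRF4-RV, while *Dcn* had at most 2 counts. IRF4-RV replicate 2 thus stood apart in stromal transcripts. Their part in the results was not tested, and the changes of the 9 genes were also computed without that library. In bulk samples, fewer cells of a type and less RNA per cell cannot be told apart.

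With IRF4-RV, *Blk*, *Pik3ap1*, *Blnk* and *Lyn* rose, *Tec* fell, and *Syk*, *Btk*, *Fyn* and *Plcg2* did not pass the test. The 4 higher genes among 9 stand beside 16.0% of all genes tested that were higher, the 1 lower gene beside 13.7% that were lower, and the 5 called beside 29.7% called in either direction. The median log2 fold change of the 9 genes was 0.25, against 0.00726 for all genes tested. Because the 9 genes were chosen with earlier results of these data known, these comparisons with all genes are description only. The groups did not overlap for 8 of the 9 genes, all except *Plcg2*, as they did not for 61.3% of all genes tested. When libraries were scaled by size only, without TMM, 3 of the 9 genes were higher and 1 lower, and over all genes 37.8% of calls were higher in place of 53.8%. Without IRF4-RV replicate 2, *Tec* (log2 fold change -0.27) and *Lyn* (0.30) lost their calls and *Syk* (0.34) gained one. That fit leaves the IRF4-RV group with 1 library. Summed over the 9 genes, the level was 989 and 888 CPM in the EV-RV libraries and 1334 and 1248 CPM with IRF4-RV.

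**Figure D1:**
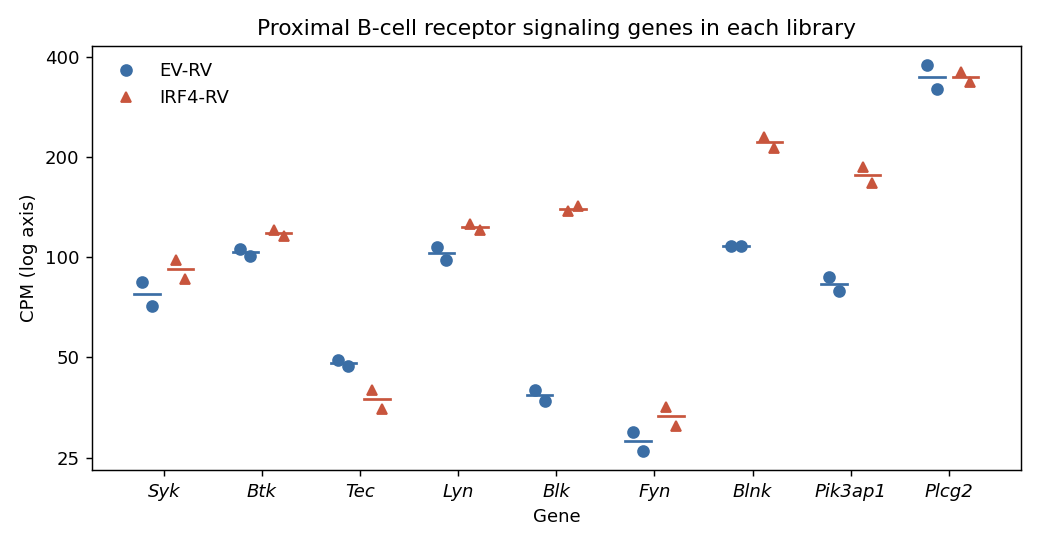
Level of each proximal signaling gene in CPM (log axis) in the EV-RV libraries (circles) and the IRF4-RV libraries (triangles), with a line at the mean of each group. *Blk*, *Blnk* and *Pik3ap1* lie far apart between groups, whereas the *Plcg2* libraries overlap between 320.4 and 377 CPM.

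The SRC family kinases start the cascade, and *Blk* (ENSMUSG00000014453, GRCm38 chromosome 14, 63372836 to 63417037, minus strand), whose kinase is found mainly in the B lineage, changed most of the 9 genes. It had 1334 and 1163 counts in the EV-RV libraries and 4666 and 5167 in the IRF4-RV libraries, that is 40.0 and 36.9 CPM against 138 and 142 CPM. Both IRF4-RV libraries were far above both EV-RV libraries, and the libraries of a group differed little. The level rose 3.64-fold, a log2 fold change of 1.86 (SE 0.0823, edgeR adjusted p = 7.54e-06), which is higher than that of 98.1% of the genes tested.

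*Lyn* (ENSMUSG00000042228, chromosome 4, 3678115 to 3813122, plus strand) encodes the SRC kinase that both starts and restrains the receptor's signal. It was at 107 and 98.3 CPM with EV-RV and at 126 and 121 CPM with IRF4-RV. The groups did not overlap, with all 4 libraries within a narrow range. Its log2 fold change was 0.27 (SE 0.0791, edgeR adjusted p = 0.0447), or 1.21-fold. The call was lost when EV-RV replicate 2 (0.21, edgeR adjusted p = 0.155), IRF4-RV replicate 1 (0.22, edgeR adjusted p = 0.285) or IRF4-RV replicate 2 (0.30, edgeR adjusted p = 0.122) was left out, and with library size only (0.18, edgeR adjusted p = 0.177). Exons of *Lyn* overlap the lincRNA *Gm26857* on the opposite strand over 248 of 4073 bases, and whether counting used the strand is not given in the sources used here.

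*Fyn* (ENSMUSG00000019843, chromosome 10, 39368855 to 39565381, plus strand), a widely expressed SRC kinase, was at 29.9 and 26.2 CPM with EV-RV and at 35.4 and 31.2 CPM with IRF4-RV. The lowest IRF4-RV library lay just above the highest EV-RV library. The log2 fold change of 0.25 (SE 0.109, 95% interval -0.01 to 0.50) did not pass the test (edgeR adjusted p = 0.156). It was 0.15 without EV-RV replicate 2 (edgeR adjusted p = 0.457) and 0.13 without IRF4-RV replicate 1 (edgeR adjusted p = 0.621).

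Levels of different genes were compared per length, as CPM per kb of exon. Among the 3 kinases, *Lyn* held 54.7% and 55.1% of the summed level per kb in the EV-RV libraries and 34.4% and 33.2% with IRF4-RV. The share of *Blk* went from 31.0% and 31.2% to 56.6% and 58.8%, and that of *Fyn*, 14.3% and 13.7% with EV-RV, was lower in both IRF4-RV libraries. *Blk* was thus below *Lyn* in each EV-RV library and above it in each IRF4-RV library, with a ratio of *Blk* to *Lyn* per kb of 0.566 and 0.566 against 1.65 and 1.77. The ratio of *Lyn* to *Fyn* overlapped between groups, at 3.82 and 4.02 in the EV-RV libraries and 3.82 and 4.15 in the IRF4-RV libraries. The summed level of the 3 kinases was 47.9 and 43.8 CPM per kb in the EV-RV libraries and 90.2 and 89.5 CPM per kb with IRF4-RV. With 2 libraries against 2, a two-sided exact permutation test of such a ratio cannot go below p = 0.333, and none was run.

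*Lck*, the SRC kinase best known from T cells, was the most abundant transcript of the whole family in every library, at 112 and 115 CPM per kb with EV-RV and 120.3 and 128 CPM per kb with IRF4-RV. It held 68.3% and 71.0% of the summed level per kb of the SRC family genes in the EV-RV libraries and 56.2% and 58.1% with IRF4-RV, while *Blk* went from 9.06% and 8.41% to 23.9% and 23.8%. The log2 fold change of *Lck* was 0.13 (edgeR adjusted p = 0.256), and *Cd3d*, *Cd3e* and *Cd3g*, which encode the signaling chains of the T-cell receptor, had at most 5 counts in any library. *Src* and *Yes1* stayed below 3 CPM per kb in each library.

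**Figure D2:**
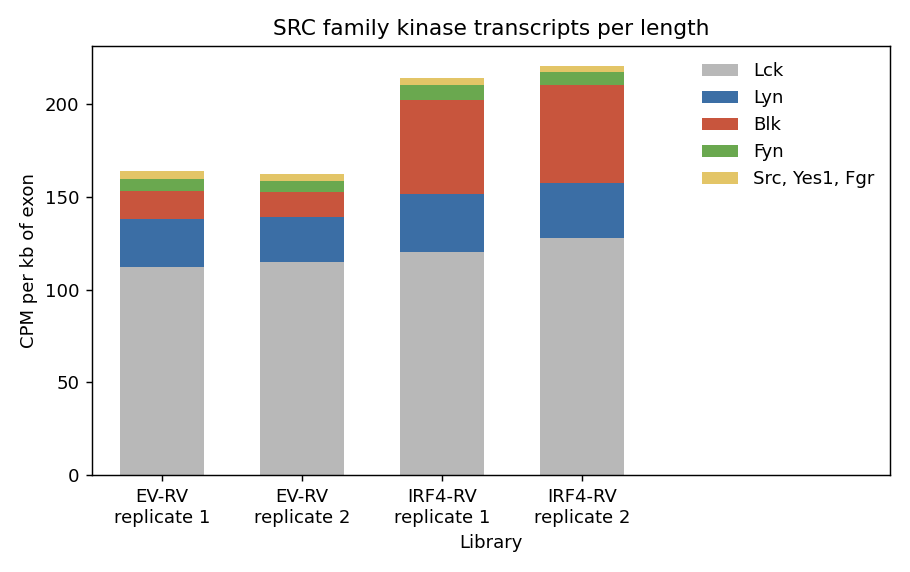
Levels of the SRC family kinase genes in each library, stacked, in CPM per kb of exon from a GENCODE M21 exon union. *Lck* is the largest part of each bar, and the part of *Blk* grows from 14.8 and 13.7 CPM per kb with EV-RV to 51.1 and 52.6 CPM per kb with IRF4-RV.

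*Syk* (ENSMUSG00000021457, chromosome 13, 52583173 to 52648792, plus strand) encodes the kinase that docks on the phosphorylated receptor. It had 2812 and 2246 counts in the EV-RV libraries and 3313 and 3137 in the IRF4-RV libraries, that is 84.3 and 71.2 CPM against 97.8 and 86.2 CPM. The groups were separated only narrowly, and the EV-RV libraries themselves differed by 0.24 on the log2 scale. Between the groups, the log2 fold change was also 0.24 (SE 0.107, 95% interval -0.01 to 0.49, edgeR adjusted p = 0.153). It passed the test without EV-RV replicate 1 (0.36, edgeR adjusted p = 0.0679) and without IRF4-RV replicate 2 (0.34, edgeR adjusted p = 0.0813), whereas the value was 0.13 without EV-RV replicate 2 (edgeR adjusted p = 0.484) and 0.13 without IRF4-RV replicate 1 (edgeR adjusted p = 0.603).

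*Zap70*, the other gene of this kinase family and typical of T cells, was at 28.5 and 27.8 CPM with EV-RV and at 20.3 and 19.4 CPM with IRF4-RV. It fell by 0.50 on the log2 scale (SE 0.0918, edgeR adjusted p = 0.00671). Per kb of exon, *Syk* made up 48.6% and 45.0% of the pair in the EV-RV libraries and 60.6% and 58.6% with IRF4-RV, and the groups did not overlap. With the length of the longest transcript in place of the exon union, these shares were 55.3% and 51.7% against 66.8% and 65.0%, so that the order of both genes in EV-RV cells depends on the length used.

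The TEC family kinases act on the BLNK scaffold. *Btk* (ENSMUSG00000031264, chromosome X, 134542336 to 134583570, minus strand), the main activator of PLCγ2 in B cells, was at 106 and 101 CPM with EV-RV and at 121 and 116 CPM with IRF4-RV. Both IRF4-RV libraries were above both EV-RV libraries, by a small margin. The difference was 0.20 on the log2 scale (SE 0.0757, 95% interval 0.02 to 0.38), and it did not pass the test (edgeR adjusted p = 0.102). It was 0.11 with library size only (edgeR adjusted p = 0.364) and 0.19 with DESeq2 (DESeq2 adjusted p = 0.142).

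*Tec* (ENSMUSG00000029217, chromosome 5, 72755716 to 72868483, minus strand), a relative of BTK that can share its tasks, was the lower gene. It had 1645 and 1485 counts in the EV-RV libraries and 1351 and 1270 in the IRF4-RV libraries, that is 49.3 and 47.1 CPM against 39.9 and 34.9 CPM. Both IRF4-RV libraries were below both EV-RV libraries. The log2 fold change was -0.37 (SE 0.0972, edgeR adjusted p = 0.0310), and without IRF4-RV replicate 2 it was -0.27 (edgeR adjusted p = 0.238). The ratio of *Tec* to *Btk* per kb was 0.393 in both EV-RV libraries and 0.277 and 0.253 in the IRF4-RV libraries. The summed level of both genes overlapped between groups, at 46.7 and 44.6 CPM per kb with EV-RV and 49.1 and 46.1 CPM per kb with IRF4-RV. Of the other TEC family genes, *Txk* had at most 6 counts in any library and *Bmx* at most 1.

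**Figure D3:**
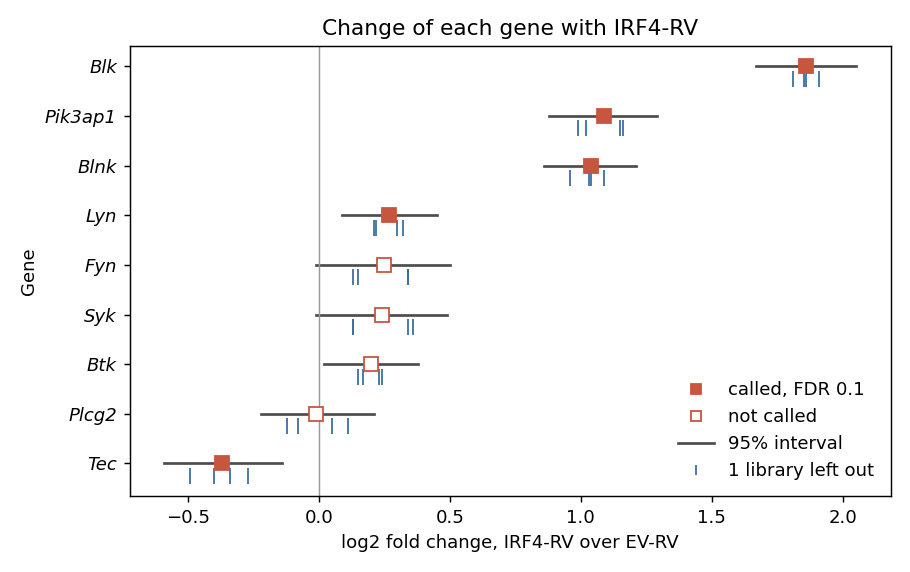
Log2 fold change of each gene with IRF4-RV over EV-RV (squares, filled where called by edgeR at an FDR of 0.1), with its 95% interval before adjustment (lines) and the values with 1 library left out (ticks). *Blk*, *Pik3ap1* and *Blnk* lie near or above 1 in each case, and *Plcg2* has values on both sides of 0.

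The adaptors rose together. *Blnk* (ENSMUSG00000061132, chromosome 19, 40928927 to 40994535, minus strand) had 3614 and 3402 counts in the EV-RV libraries and 7796 and 7771 in the IRF4-RV libraries, that is 108 CPM in both EV-RV libraries and 230.2 and 213 CPM with IRF4-RV. This was a 2.05-fold rise, or 1.04 on the log2 scale (SE 0.0760, edgeR adjusted p = 7.64e-05). *Pik3ap1* (ENSMUSG00000025017, chromosome 19, 41272377 to 41385102, minus strand), further along the same chromosome, was at 87.3 and 79.1 CPM with EV-RV and at 186 and 167 CPM with IRF4-RV. It rose 2.12-fold, or by 1.09 on the log2 scale (SE 0.0896, edgeR adjusted p = 0.000148). For both adaptors, each IRF4-RV library was far above each EV-RV library, and the values stayed between 0.96 and 1.09 for *Blnk* and between 0.99 and 1.16 for *Pik3ap1* with 1 library left out. The ratio of *Blnk* to *Syk*, its kinase, was 2.01 and 2.37 per kb in the EV-RV libraries and 3.68 and 3.87 with IRF4-RV.

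*Plcg2* (ENSMUSG00000034330, chromosome 8, 117498291 to 117635142, plus strand) encodes the phospholipase on which the cascade converges. It was the most abundant of the 9 genes, with 12589 and 10103 counts in the EV-RV libraries and 12171 and 12227 in the IRF4-RV libraries, that is 377 and 320.4 CPM against 359 and 336 CPM. The IRF4-RV libraries lay between the EV-RV libraries. The log2 fold change was -0.01 (SE 0.0941, 95% interval -0.22 to 0.21, edgeR adjusted p = 0.974), and with 1 library left out it ranged from -0.12 to 0.11. *Plcg1*, its relative from T cells and other tissues, had 64 and 46 counts in the EV-RV libraries and 111 and 153 in the IRF4-RV libraries. It rose by 1.14 on the log2 scale (edgeR adjusted p = 0.0143) but had far fewer counts than *Plcg2* in each library.

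Ordered by level per kb in EV-RV cells, *Plcg2* led with 81.2 ± 9.36 CPM per kb (SD, n = 2), followed by *Btk* with 32.8 ± 1.10, *Lyn* with 25.2 ± 1.45 and *Blnk* with 18.0 ± 0.0494. *Pik3ap1* (14.9 ± 1.04) and *Blk* (14.2 ± 0.811) came next and overlapped, and *Tec* (12.9 ± 0.416), *Syk* (8.31 ± 0.985) and *Fyn* (6.43 ± 0.607) followed. With IRF4-RV, *Plcg2* again led with 80.9 ± 3.87 CPM per kb (SD, n = 2), and *Blk* moved from rank 6 to rank 2 with 51.8 ± 1.09. *Btk* (37.6 ± 1.21) overlapped *Blnk* (37.0 ± 1.98), and *Pik3ap1* (31.7 ± 2.36) overlapped *Lyn* (30.4 ± 0.885). *Tec* (9.99 ± 0.946) and *Syk* (9.83 ± 0.881) overlapped, and *Fyn* was last with 7.63 ± 0.671. With the longest transcript in place of the exon union, *Blk* moved from rank 7 to rank 2, *Tec* stood above *Blk* in EV-RV cells, and in IRF4-RV cells *Blnk* stood above *Btk* and *Syk* above *Tec*.

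RefSeq promoter windows, from 250 bases before to 50 after a transcript start on GRCm38.p6, were held for 7 of the 9 genes, and those of *Lyn* and *Blk* were not analysed here. IRF4 binds DNA weakly on its own and joins ETS factors on the composite element GGAANNGAAA, or binds repeats such as GAAANNGAAA. Over 32851 windows, 2.72% held the composite element and 3.44% the repeat on either strand. Neither was found in the 8 windows of the 7 genes, which says only that these letters are not in these windows. The cores GGAA and GAAA alone, chosen for display after that, are common and stood in 93.4% and 86.4% of the 250 bases before a start. The stretches of 3 genes are shown, *Pik3ap1*, which rose, *Tec*, which fell, and its relative *Btk*, which was not called. They are given 5′ to 3′ on the strand of the gene, with the cores GGAA and GAAA on either strand in capitals, which may overlap as GGAAA. That of *Pik3ap1* spans chr19:41385103-41385352, that of *Tec* chr5:72868484-72868698, ending where its exon begins, and that of *Btk* chrX:134583141-134583390, each on the minus strand. The stretch of *Btk* lies inside the GENCODE span of the gene but outside its exons.
Pik3ap1: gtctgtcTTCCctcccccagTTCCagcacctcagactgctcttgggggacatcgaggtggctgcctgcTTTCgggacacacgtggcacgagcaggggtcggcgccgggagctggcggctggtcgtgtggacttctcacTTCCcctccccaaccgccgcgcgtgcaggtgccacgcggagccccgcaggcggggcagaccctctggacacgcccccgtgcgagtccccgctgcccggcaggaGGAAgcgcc
Tec: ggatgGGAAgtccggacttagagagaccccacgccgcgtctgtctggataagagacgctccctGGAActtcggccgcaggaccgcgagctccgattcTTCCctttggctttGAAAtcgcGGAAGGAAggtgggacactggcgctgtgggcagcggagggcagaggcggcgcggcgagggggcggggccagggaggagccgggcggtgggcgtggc
Btk: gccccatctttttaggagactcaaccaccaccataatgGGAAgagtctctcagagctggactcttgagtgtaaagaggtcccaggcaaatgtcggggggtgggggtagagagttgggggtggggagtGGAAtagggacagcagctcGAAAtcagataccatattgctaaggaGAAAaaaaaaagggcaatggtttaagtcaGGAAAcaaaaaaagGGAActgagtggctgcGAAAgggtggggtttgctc
The stretch of *Pik3ap1* held 4 matches of the ETS core and 1 of the IRF core, that of *Tec* 5 and 1, and that of *Btk* 4 and 4. Over 32851 windows, the median in the 250 bases before a start was 3 for the ETS core and 2 for the IRF core. The stretch of *Tec* shown is shorter, at 215 bases.

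The other genes of the pathway were taken from lists of 51 genes, of which 46 were tested. Of these, 16 were higher and 6 lower with IRF4-RV, beside 16.0% and 13.7% of all genes tested, and their median log2 fold change was 0.06. The counts of each list given below stand beside the same shares, 29.7% in either direction. The lists are short, and none was tested as a set. With library size only, 10 were higher and 8 lower, beside 1743 higher and 2867 lower among all 14637 genes tested.

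The receptor and coreceptor chains, on which the kinases act, held 0 higher and 0 lower genes among 5 tested, with *Cr2* alone at an unadjusted edgeR p under the usual level (0.0333). *Cd79a*, a signaling chain of the receptor, was at 910.3 and 922 CPM with EV-RV and at 906 and 907 CPM with IRF4-RV, and its partner *Cd79b* at 293 CPM in both EV-RV libraries and at 289.6 and 293 CPM with IRF4-RV. *Cd81*, a tetraspanin of the coreceptor complex, had a log2 fold change of -0.08 (edgeR adjusted p = 0.489). *Cr2*, the complement receptor of mature B cells, had only 20 and 10 counts in the EV-RV libraries and 38 and 34 in the IRF4-RV libraries (edgeR adjusted p = 0.109). DESeq2 called 0 of these 5 genes as well, whereas edgeR called *Cr2* higher with all genes with at least 1 count (edgeR adjusted p = 0.0860).

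Among the other kinases of the 3 families, 6 of 9 were tested, with 0 higher and 2 lower genes. Beside *Zap70*, *Fgr*, a SRC kinase of myeloid and mature B cells, fell by 1.83 on the log2 scale (SE 0.343, edgeR adjusted p = 0.00745), from 61 and 55 counts to 19 and 16. Of 9 regulators of SRC and SYK kinases, 4 were higher and 0 lower. *Ptprc*, the phosphatase CD45 that frees SRC kinases from their inhibitory phosphate, was at 189.8 and 157 CPM with EV-RV and at 266 and 234 CPM with IRF4-RV, a log2 fold change of 0.53 (edgeR adjusted p = 0.0109). *Csk*, the kinase that places that phosphate, had a log2 fold change of 0.10 (edgeR adjusted p = 0.329). The ubiquitin ligase genes *Cblb* and *Cbl*, whose products mark active kinases for degradation, rose by 0.46 (edgeR adjusted p = 0.0192) and 0.28 (edgeR adjusted p = 0.0692) on the log2 scale, and *Sla*, an adaptor that dampens antigen receptors, by 0.31 (edgeR adjusted p = 0.0488). The calls of *Cbl* and *Sla* were lost with library size only (edgeR adjusted p = 0.224 and 0.172), without EV-RV replicate 2 (edgeR adjusted p = 0.200 and 0.179) and without IRF4-RV replicate 1 (edgeR adjusted p = 0.525 and 0.253), and that of *Cbl* also without EV-RV replicate 1 (edgeR adjusted p = 0.116).

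Of 16 other adaptors and exchange factors tested, 7 were higher and 2 lower. *Themis2*, an adaptor of B cells and macrophages, had the largest rise of all pathway genes, from 20.5 and 17.9 CPM to 76.5 and 73.7 CPM, a log2 fold change of 1.97 (SE 0.0983, edgeR adjusted p = 1.41e-05). *Sh3bp2*, an adaptor that binds SYK, rose from 14.4 and 12.5 CPM to 39.4 and 33.0 CPM (log2 fold change 1.43, edgeR adjusted p = 0.000205), and *Sos1*, which activates RAS, by 0.64 (edgeR adjusted p = 0.00742). *Bank1*, a scaffold that joins LYN to calcium channels, fell by 0.63 (edgeR adjusted p = 0.0561), a call that was lost without any 1 of the 4 libraries (edgeR adjusted p from 0.124 to 0.169) and with DESeq2 (0.198).

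Of 10 lipid and calcium signal genes, 5 were higher and 2 lower. *Rasgrp3*, a RAS activator that responds to diacylglycerol, had 32 and 35 counts in the EV-RV libraries and 100 and 99 in the IRF4-RV libraries, a log2 fold change of 1.45 (edgeR adjusted p = 0.00629). *Itpr2* and *Itpr3* encode channels that release calcium from stores and moved in opposite directions. *Itpr2* was at 41.0 and 28.5 CPM with EV-RV and 67.2 and 54.4 CPM with IRF4-RV (log2 fold change 0.81, edgeR adjusted p = 0.0135), and *Itpr3* at 86.7 and 65.4 CPM against 58.9 and 47.1 CPM (log2 fold change -0.52, edgeR adjusted p = 0.0452). The call of *Itpr3* was lost without EV-RV replicate 1 (-0.31, edgeR adjusted p = 0.199).

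**Figure D4:**
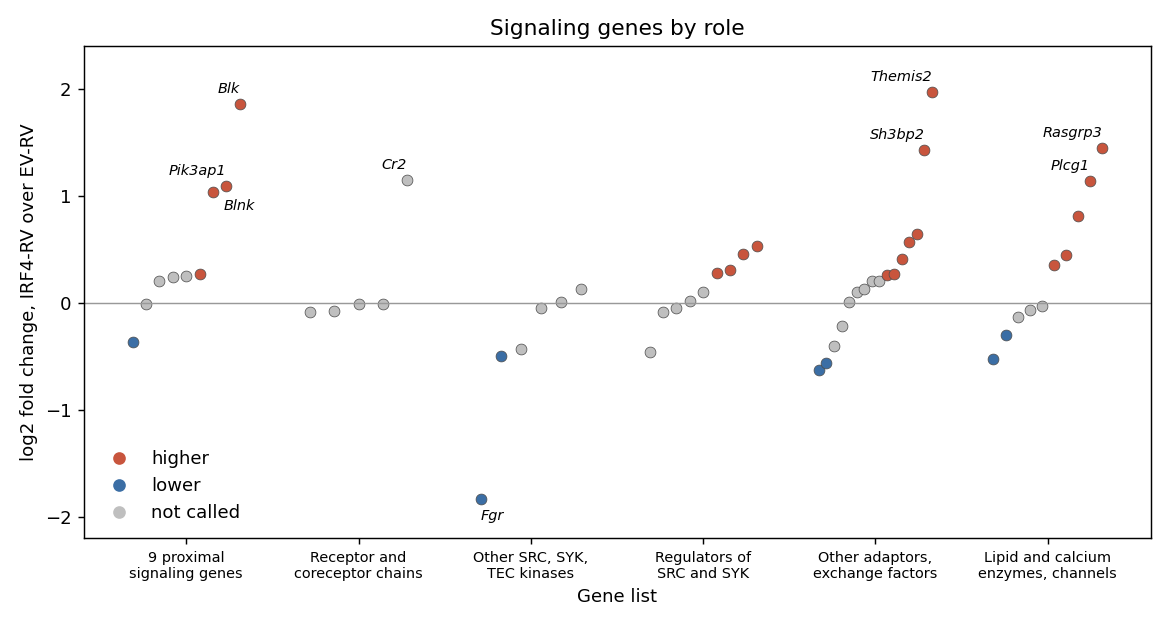
Log2 fold change with IRF4-RV over EV-RV of the tested genes of each list, ordered within a list and colored by the edgeR call at an FDR of 0.1. The receptor chains other than *Cr2* lie close to 0, and *Blk*, *Themis2*, *Sh3bp2* and *Rasgrp3* lie highest.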

How the data were processed

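Raw RNAseq counts per gene of 4 libraries, 2 per group, were used. The authors aligned reads to GRCm38 with STAR (version 2.4.0j), per the submitters' processing notes, and deposited featureCounts counts without normalization. Settings for strand and multiple alignments are not given in the sources used here. Symbols, coordinates and exon unions came from GENCODE M21, which matched 52083 of 55359 identifiers. The paper counted reads with an ENSEMBL annotation, so the lengths behind levels per kb can differ from the exons that were counted. Identifiers without a match held at most 0.486% of a library.

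Genes passing filterByExpr were tested with edgeR 4.0.16 in R 4.3.3 (TMM factors, quasi-likelihood F test, Benjamini-Hochberg adjustment over all genes tested, FDR of 0.1 as in the methods of the study, no block). Standard errors were derived from the F statistic. The 9 genes and the other lists were chosen with earlier results of these data known. Named pathway genes were the receptor chains (some items are not reported here) and, of each other list, the 4 called genes with the largest change. Other pathway genes named (*Lck*, *Src*, *Yes1*, *Txk*, *Bmx*, *Csk* and *Lat*) and the groupings by family were picked with their values in view. On simulated data, the same steps made more false calls than the FDR allows. Replicates differed by more than sampling noise (chi-square per degree of freedom 14.1 and 13.1). Alternatives were DESeq2 1.42.0, other scalings, filters and cutoffs, the replicate block, other lengths and each library left out.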

Additional observations from a re-analysis of the deposited data

How the results depend on the processing

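Of 90 recomputed changes of the 9 genes, 77 kept their direction and their side of the cutoff, among them all of *Blk*, *Blnk* and *Pik3ap1*. The replicate numbers are shared between groups by label only. Deviations of same-numbered libraries correlated across genes with r of 0.243, with 2 pairs. With the replicate block, 8 of the 9 genes were called in place of 5, the additions being *Syk* (0.24, edgeR adjusted p = 0.000978), *Btk* (0.20, edgeR adjusted p = 0.00604) and *Fyn* (0.25, edgeR adjusted p = 0.0198). The block also raised the calls over all 14637 genes tested, from 4349 to 6394. With all genes with at least 1 count, *Syk* was called (0.25, edgeR adjusted p = 0.0727), and with library size only *Lyn* was not (0.18). With each library left out in turn, log2 fold changes ranged from 0.13 to 0.36 for *Syk*, from 0.15 to 0.24 for *Btk*, from -0.49 to -0.27 for *Tec*, from 0.21 to 0.32 for *Lyn*, from 0.13 to 0.34 for *Fyn* and from -0.12 to 0.11 for *Plcg2*, whose direction turned without EV-RV replicate 1 (0.11) and without IRF4-RV replicate 2 (0.05). The cause was not tested. Over all genes, 3347 to 6394 were called across settings, and 15 to 28 of the pathway genes. Of 198 recomputed changes of *Irf4* and the named pathway genes, 13 lost their call, 3 gained one and none turned. With library size only 4, and with the longest transcript 16, of 18 levels per kb moved by more than the spread between replicates. Leaving out a library leaves a group with 1 sample, which is assumed to vary like the other group. Each of the 9 genes had at least 826 counts in every library.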
